A study of Mus musculus with 11 samples.

Results

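With the exceptions named below, the genes described here are nuclear genes that encode subunits of respiratory complexes II, III, IV and V, or cytochrome c. They were taken by symbol among protein-coding genes: Sdha, Sdhb, Sdhc, Sdhd, Cyc1, Cycs and all symbols that begin with Uqcr, Cox4, Cox5, Cox6, Cox7, Cox8 or Atp5. Of 50 genes taken by symbol, 46 had at least 10 counts in each of the 11 libraries and were kept, out of 53465 genes in the count table. They comprise 4 genes of complex II, 9 of complex III, 1 gene of cytochrome c, 15 genes of complex IV and 17 of complex V. Cox7a2l is counted with complex IV and Atp5s with complex V, although neither is a structural subunit. Of the other 4, Cox6b2 (3 to 15 counts per library), Cox7b2 (0 to 1 count) and Cox8c (0 counts in all 11 libraries) fell below the minimum, and a second identifier with the symbol Atp5o was not analysed here. A count of 0 allows up to 0.135 CPM (counts scaled to a gene total of 1000000) in a library, taking 3 counts as the limit. The lowest counts among the genes kept were those of Cox4i2, with 23 to 57 per library.

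RNA was sequenced from the quadriceps, the large extensor muscle of the thigh, of aged mice of the strain written C57L/6JRj. Mice in the myriocin group received this inhibitor of serine palmitoyltransferase, the enzyme that starts sphingolipid synthesis, for 10 weeks from an age of 18 months, and mice in the control group received DMSO, the solvent. No genetic change is named in either group, and neither dose nor sex is stated in the labels. There were 5 DMSO and 6 myriocin libraries. Nothing in the labels states that these came from different animals, so the spread between libraries may be partly technical and the p-values measure that spread only.

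The respiratory chain passes electrons along the inner mitochondrial membrane and pumps protons, and the ATP synthase uses the proton gradient to make ATP. Complex II oxidises succinate, complex III passes electrons from ubiquinol to cytochrome c, complex IV hands them to oxygen, and complex V is the ATP synthase. Complex II is built from nuclear genes only, whereas complexes III, IV and V also hold subunits encoded in mitochondrial DNA, which are not among the genes described here. Several subunits of complex IV exist as a form abundant in heart and skeletal muscle and a general form of most other tissues.

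Libraries held 22241131 to 23163721 counts in genes. Markers of muscle fibres summed to 150267 to 187585 CPM per library, as the tissue label states. Marker lists of other cells summed to less and differed between libraries of 1 group. In DMSO replicate 2 white adipocyte markers summed to 372 CPM, and elsewhere they summed to between 40.8 and 142 CPM. Brown adipocyte markers summed there to 94.9 CPM, against 7.17 to 17.1 CPM, and neutrophil markers to 638 CPM, against 0.360 to 85.9 CPM. Slow fibre markers ran from 10.49 to 492.8 CPM, fibroblast markers from 604 to 1238 CPM, macrophage markers from 30.9 to 71.0 CPM and red cell markers from 46.0 to 232 CPM. Liver markers summed to 106 CPM in DMSO replicate 4, 89.8 CPM in DMSO replicate 5 and 110 CPM in Myriocin replicate 4, and to 5.53 to 26.4 CPM in the other libraries. No marker of these lists was at 0 in all libraries. DMSO replicate 5 stood apart for the respiratory genes themselves, and for most of them the log2 fold change is also given without it.

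The 46 genes together took 1.75% ± 0.191 of the gene counts in the DMSO libraries (SD, n = 5) and 1.66% ± 0.133 in the myriocin libraries (SD, n = 6). The lowest library stood at 1.46% and the highest, DMSO replicate 5, at 2.06%. Complex V held the largest part of these shares, 0.759% to 1.04% of gene counts, before complex IV with 0.314% to 0.493%, complex III with 0.219% to 0.328% and complex II with 0.155% to 0.183%. Among the 14117 genes tested, ranked by mean CPM, 5 of the 46 were in the top 1%, 35 in the top 5% and 40 in the top 10%.

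Levels can be set side by side between genes only per length, here as CPM per kilobase of merged exons (mean of 11 libraries), and the order of several genes changed with the length used. The highest was Cox6a2, the muscle form of subunit VIa of complex IV, at 1670 CPM per kilobase also by the length of the principal transcript. By merged exons the next were Cox8b, the muscle form of subunit VIII, at 889 and Atp5b, the catalytic beta subunit of the ATP synthase, at 663 CPM per kilobase, whereas by the principal transcript Atp5b, at 1466, stood above Cox8b, at 889. Within complex II, Sdha, the flavoprotein that oxidises succinate, was highest at 226 and Sdhc, a membrane anchor, lowest at 79.4 CPM per kilobase. In complex III, Uqcr10, a small subunit, stood at 321 and Uqcrc2, a core protein, at 122 CPM per kilobase. By the principal transcript Uqcrq was the highest of that complex, at 674 against 432 for Uqcr10. Cycs, the somatic cytochrome c, stood at 58.0 CPM per kilobase. By merged exons the lowest values belonged to Cox4i2 at 2.10, Atp5l, a small membrane subunit of the ATP synthase, at 3.91, and Atp5s at 6.55 CPM per kilobase. The merged exons of Atp5l span 6443 bases and its principal transcript 544, and per kilobase of the latter it stood at 46.3, above Atp5s at 8.99. Exons of Atp5l also overlap those of another annotated gene, and 2 annotated pseudogenes bear its name. Atp5s, also named Dmac2l, is not a structural subunit of the ATP synthase.

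**Figure D1:**
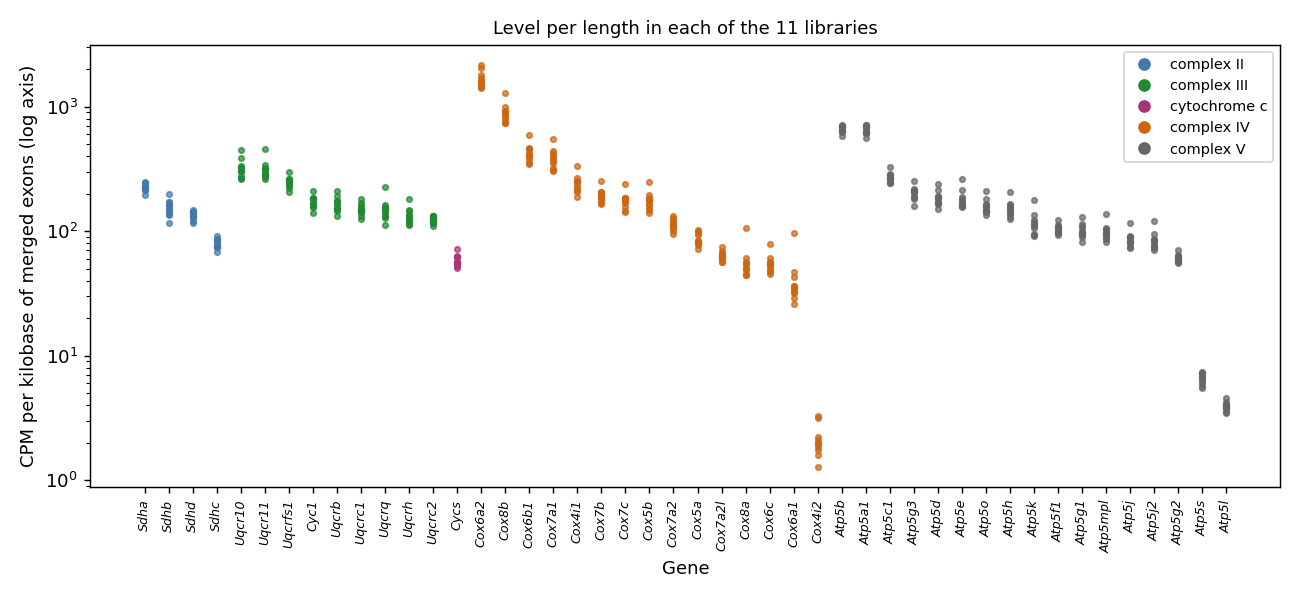
Level per length of the 46 genes, as CPM per kilobase of merged exons on a log axis. Each point is 1 of the 11 libraries, colours mark the complex, and genes are ordered by mean within a complex. Cox6a2 is highest, at 1417 to 2168, and Cox4i2 lowest, at 1.28 to 3.25.

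In complex IV, muscle and general forms of 3 subunits are measured side by side. Promoter windows of these forms, from 250 bases before to 50 bases after the annotated start (RefSeq, GRCm38.p6), are shown so that muscle and general forms can be compared. Capitals mark matches, on either strand, to TATAAA (the letters of a TATA box), CCGGAAG (the site of GABP, also called NRF2) and GCGCATGCG (the site of NRF1). The muscle form Cox8b (chr7:140900397-140900696, minus strand) comes first, then the general forms Cox8a (chr19:7217567-7217866, minus strand) and Cox6a1 (chr5:115348909-115349208, minus strand).
Cox8b: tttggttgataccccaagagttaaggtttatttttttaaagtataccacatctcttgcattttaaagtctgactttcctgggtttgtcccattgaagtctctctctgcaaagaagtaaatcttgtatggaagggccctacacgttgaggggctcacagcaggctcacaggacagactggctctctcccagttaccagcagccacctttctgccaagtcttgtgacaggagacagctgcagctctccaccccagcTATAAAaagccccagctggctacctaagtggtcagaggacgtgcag
Cox8a: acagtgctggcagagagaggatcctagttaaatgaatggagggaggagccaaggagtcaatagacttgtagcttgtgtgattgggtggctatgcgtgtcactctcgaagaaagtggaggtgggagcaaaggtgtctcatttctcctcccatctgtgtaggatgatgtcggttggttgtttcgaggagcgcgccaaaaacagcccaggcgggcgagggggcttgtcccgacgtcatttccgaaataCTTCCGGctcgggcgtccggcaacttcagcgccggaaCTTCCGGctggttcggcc
Cox6a1: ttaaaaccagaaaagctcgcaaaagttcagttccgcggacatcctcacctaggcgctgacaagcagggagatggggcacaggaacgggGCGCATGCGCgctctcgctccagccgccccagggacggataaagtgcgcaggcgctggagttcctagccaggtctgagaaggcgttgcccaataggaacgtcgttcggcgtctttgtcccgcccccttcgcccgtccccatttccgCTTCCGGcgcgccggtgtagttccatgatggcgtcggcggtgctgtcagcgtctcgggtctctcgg
The windows of the muscle form Cox7a1 (chr7:30183921-30184220, plus strand) and of the general form Cox7a2 (chr9:79759804-79760103, minus strand) hold none of the letters searched.
Cox7a1: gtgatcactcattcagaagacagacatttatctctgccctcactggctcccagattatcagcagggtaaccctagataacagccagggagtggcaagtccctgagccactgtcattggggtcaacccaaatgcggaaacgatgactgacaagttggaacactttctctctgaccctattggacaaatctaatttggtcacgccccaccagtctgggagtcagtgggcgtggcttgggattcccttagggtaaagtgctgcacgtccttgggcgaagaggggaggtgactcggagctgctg
Cox7a2: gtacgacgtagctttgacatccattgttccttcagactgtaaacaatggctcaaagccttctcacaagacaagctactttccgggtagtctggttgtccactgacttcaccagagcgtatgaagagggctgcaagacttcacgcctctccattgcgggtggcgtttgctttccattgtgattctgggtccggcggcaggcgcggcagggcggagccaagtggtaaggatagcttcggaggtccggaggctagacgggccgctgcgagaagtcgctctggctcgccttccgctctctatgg
The Cox8b window has 2 CpG dinucleotides and that of Cox7a1 7, whereas the windows of Cox7a2, Cox8a and Cox6a1 have 20, 19 and 32. The 35 respiratory genes with a window have a median of 19, with a range of 2 to 43, and all 27025 genes of the RefSeq table a median of 8. In the Cox8b window the TATAAA match begins at position 5 counted from the annotated start, thus after it. Whether these letters serve as a TATA box was not tested. In the Cox8a window the GABP site begins at positions -5 and 33, and in that of Cox6a1 at -16. The Cox6a1 window also matches the NRF1 site at -162 and, on the other strand, at -161, as these letters are nearly their own reverse complement. Entries for Cox6a2, Cox4i1 and Cox4i2 were not matched in the table.

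Cox6a2 (ENSMUSG00000030785, GRCm38 chromosome 7, 128205435 to 128206387, minus strand) exceeded its general partner Cox6a1 (ENSMUSG00000041697, chromosome 5, 115345642 to 115348981, minus strand) in every library. Subunit VIa helps regulate the enzyme. Cox6a2 stood at 1114, 1217, 1161, 964 and 1475 CPM in DMSO replicates 1 to 5, and with myriocin the lowest library was at 969, the median at 1060 and the highest at 1386 CPM. Cox6a1 stood at 23.6, 68.0, 25.3, 20.4 and 29.8 CPM with DMSO and at 18.4, 23.6 and 32.7 CPM (lowest, median and highest) with myriocin. DMSO replicate 2 thus lay far above all other libraries for Cox6a1 but not for Cox6a2, and the groups overlapped for both. As a share of the pair per kilobase of merged exons, Cox6a2 made up 94.9% in DMSO replicate 2 and up to 98.3% in the other libraries. The log2 fold change, myriocin minus DMSO, was -0.08 (SE 0.12) for Cox6a2 and -0.40 (SE 0.29) for Cox6a1, with edgeR's adjusted p = 0.953 and 0.936. Without DMSO replicate 2 the value of Cox6a1 was -0.006, and without DMSO replicate 5 that of Cox6a2 was 0.03. Exons of Cox6a2 overlap those of Itgad on the annotation.

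Cox8b (ENSMUSG00000025488, chromosome 7, 140898945 to 140900446, minus strand) and Cox8a (ENSMUSG00000035885, chromosome 19, 7215153 to 7217616, minus strand) encode the muscle and general forms of subunit VIII, a small membrane subunit. Cox8b stood at 307, 332, 333, 266 and 461 CPM in DMSO replicates 1 to 5 and at 263, 299 and 359 CPM (lowest, median and highest) with myriocin. For Cox8a the DMSO values were 30.98, 65.7, 34.9, 28.0 and 34.4 CPM, and the myriocin libraries ran from 27.3 over a median of 30.8 to 37.5 CPM. Again DMSO replicate 2 was alone in its high level of the general form, at 2.08 times the mean of the other libraries, against 2.77 times for Cox6a1. The muscle form made up 89.7% of the pair per kilobase in that library and up to 95.8% elsewhere. The log2 fold changes were -0.13 (SE 0.13) for Cox8b and -0.26 (SE 0.19) for Cox8a, with edgeR's adjusted p = 0.945 and 0.936. Leaving out DMSO replicate 2 gave -0.02 for Cox8a, and leaving out DMSO replicate 5 gave 0.02 for Cox8b.

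Cox7a1 (ENSMUSG00000074218, chromosome 7, 30184144 to 30186078, plus strand) and Cox7a2 (ENSMUSG00000032330, chromosome 9, 79755361 to 79759878, minus strand) encode the muscle and general forms of subunit VIIa, another small membrane subunit. Here the general form was a larger part of the pair than for the other subunits. Cox7a1 stood at 208, 162, 236, 167 and 295 CPM in DMSO replicates 1 to 5 and at 172, 198 and 225 CPM with myriocin (lowest, median and highest). Cox7a2 stood at 103, 120, 109, 90.3 and 124 CPM with DMSO and at 94.3, 102 and 115 CPM with myriocin. DMSO replicate 2 was the lowest of all libraries for the muscle form. Cox7a1 made up 70.5% to 80.8% of the pair per kilobase, with the low end again in DMSO replicate 2. The log2 fold changes were -0.06 (SE 0.15) and -0.04 (SE 0.09), with edgeR's adjusted p = 0.969 and 0.967. They were 0.10 and 0.02 without DMSO replicate 5.

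The ratio of muscle to general form within a library needs no scaling, and it did not separate the groups for any of the 3 pairs. The log2 ratio of counts of Cox6a2 over Cox6a1 was 5.29 ± 0.63 in the DMSO libraries (SD, n = 5) and 5.50 ± 0.18 in the myriocin libraries (SD, n = 6), a difference of 0.22 (2-sided exact permutation p = 0.641). For Cox7a1 over Cox7a2 it was 0.94 ± 0.31 and 0.95 ± 0.05 (n = 5 and 6), a difference of 0.01 (exact permutation p = 0.965). For Cox8b over Cox8a it was 3.18 ± 0.51 and 3.28 ± 0.10 (n = 5 and 6), a difference of 0.10 (exact permutation p = 0.716). Adjusted over the 3 ratios the p-values were 0.965 each, and the smallest p that the group sizes allow is 0.00216. DMSO replicate 2 had the lowest ratio of all 11 libraries in each pair, at 4.16, 0.44 and 2.34. Without this library, singled out because of these low ratios, the differences changed sign, to -0.07, -0.12 and -0.11. For Cox7a1 over Cox7a2 this gave exact permutation p = 0.0952, not adjusted over the 3 ratios. The sums of adipocyte and neutrophil markers were also highest in that library. So was the sum of slow fibre markers, at 492.8 CPM, though Myriocin replicate 5 was close to it at 490.3 CPM. Ucp1, which defines brown adipocytes, stood at 48.6 CPM there and at 0 to 0.793 CPM in the others, Cidea at 34.9 against 0.854 to 5.23 CPM, and Adipoq of white adipocytes at 100.5 against 12.7 to 40.7 CPM. Not every marker of these lists was highest there. Ppargc1b of the brown list stood at 8.89 against 6.12 to 12.0 CPM, and Lep of the white list at 2.18 against 0.0866 to 2.44 CPM. The part of adipocytes, neutrophils and slow fibres in the general isoform levels was not tested. In bulk tissue, fewer cells of a type and less RNA per cell cannot be told apart, and this holds for every level given here.

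**Figure D2:**
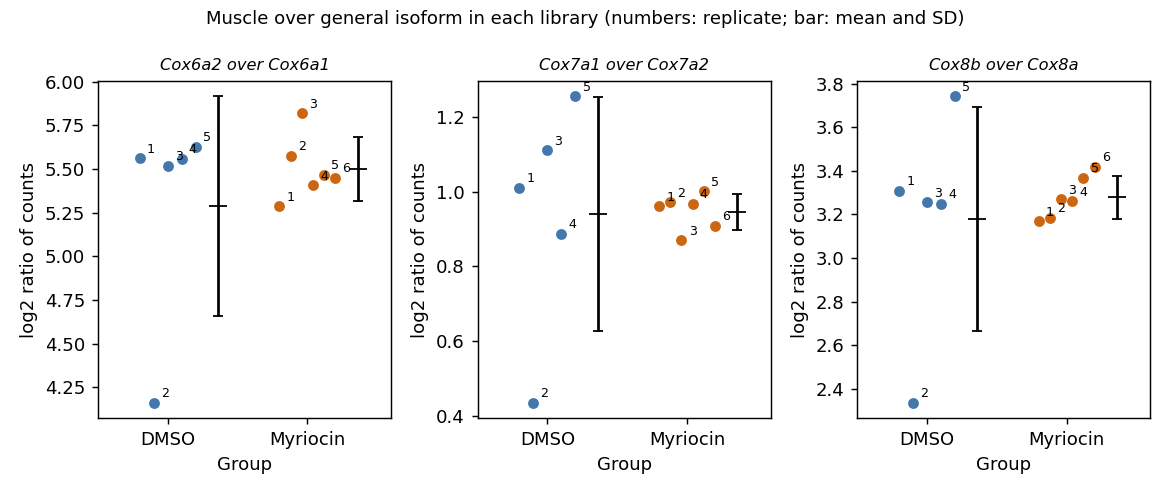
Log2 ratio of counts of the muscle over the general form for the 3 isoform pairs of complex IV. Points are libraries with their replicate number, and bars give mean and SD of a group. DMSO replicate 2 is lowest in each panel, at 4.16, 0.44 and 2.34.

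Subunit IV has no muscle form of this kind. Its general form Cox4i1 (ENSMUSG00000031818, chromosome 8, 120668222 to 120674207, plus strand) stood at 360, 386, 381, 343 and 513 CPM in DMSO replicates 1 to 5 and at 292, 356 and 415 CPM with myriocin (lowest, median and highest). Its log2 fold change was -0.13 (SE 0.12, edgeR's adjusted p = 0.941), and the groups overlapped. It was 0.001 without DMSO replicate 5, the highest library. Its exons overlap those of Emc8. Cox4i2 (ENSMUSG00000009876, chromosome 2, 152754173 to 152765037, plus strand), a form best known from lung and from cells that sense oxygen, had low counts, at 23 to 57 per library. It stood at 1.76, 2.48, 1.54, 1.39 and 2.56 CPM with DMSO and at 1.01, 1.49 and 1.64 CPM with myriocin. The groups overlapped, with DMSO replicates 2 and 5 above all other libraries.

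Cox4i2 had the largest negative log2 fold change of the 46 genes, -0.42 (SE 0.20, 95% interval -0.85 to 0.00), with an unadjusted p of 0.0509 and an adjusted p of 0.936 by edgeR's quasi-likelihood test. Leaving out 1 library at a time gave -0.52 to -0.29. The value was larger without DMSO replicate 4, at -0.52, or DMSO replicate 3, at -0.50. It was smaller without DMSO replicate 5, at -0.29, or DMSO replicate 2, at -0.34, the libraries with its highest levels. With DMSO replicates 2 and 5 and Myriocin replicate 4 left out together, the value was -0.13. Endothelial markers summed to 239 to 278 CPM with DMSO and 192 to 271 CPM with myriocin. All 6 had negative log2 fold changes, as had 53.7% of all genes tested. Cldn5 had the largest, at -0.51 (SE 0.14, edgeR's unadjusted p = 0.00263 and adjusted p = 0.936), and the others lay between -0.16 and -0.06. Pecam1 stood at -0.16 (SE 0.08), and Cdh5, with the highest mean count of the list, at -0.07 (SE 0.09). The part of the endothelial cells in the level of Cox4i2 was not tested.

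The other subunits of complex IV lay close together in fold change. Cox6b1 (ENSMUSG00000036751, chromosome 7, 30616861 to 30626151, minus strand), on the side of the intermembrane space, stood at 278, 323, 300, 248 and 417 CPM in DMSO replicates 1 to 5. With myriocin it ran from 244 over a median of 289 to 330 CPM, and its log2 fold change was -0.08 (SE 0.13, edgeR's adjusted p = 0.958) and 0.07 without DMSO replicate 5. Its partner in testis, Cox6b2, reached at most 15 counts. Cox5a, Cox5b, Cox6c and Cox7c were taken as single forms, and the partner of Cox7b, Cox7b2, reached at most 1 count. The 5 subunits Cox5a, Cox5b, Cox6c, Cox7b and Cox7c had log2 fold changes of -0.12 to -0.01 (median -0.08). Of them edgeR called 0 at an adjusted or unadjusted p under 0.05, against 0% and 4.68% of all genes tested. Among 5 genes, 0 shows no difference from these shares. All 5 were positive without DMSO replicate 5, at 0.02 for Cox5a, 0.07 for Cox5b, 0.03 for Cox6c, 0.11 for Cox7b and 0.05 for Cox7c. Cox7a2l (ENSMUSG00000024248, chromosome 17, 83501918 to 83517330, minus strand) assembles complexes III and IV into supercomplexes and is not a subunit of complex IV alone. It stood at 93.2, 102, 97.9, 89.3 and 110 CPM with DMSO and at 82.7, 89.4 and 94.96 CPM with myriocin. Its log2 fold change of -0.11 (SE 0.07) had an unadjusted p of 0.148 and an adjusted p of 0.936 by edgeR, and was -0.06 without DMSO replicate 5.

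Over all respiratory genes, the treatment comparison gave no call. Of the 46, 0 passed edgeR's quasi-likelihood test at an adjusted p under 0.05, where the same holds for 0% of the 14117 genes tested. DESeq2 and limma-voom also called 0 of them, where over all genes DESeq2 called a few, as given below, and limma-voom 0. At an unadjusted p under 0.05 there were 0 of 46 by edgeR, against 4.68% of all genes tested. The CPM of the groups overlapped for all 46, and 0.602% of all genes tested had groups that did not overlap. Adjusted p-values ran from 0.936 to 0.998. The 95% intervals of 42 of the 46 lay within 0.5 on the log2 scale to either side of 0, and those of 45 within 1.

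Most of the 46 nevertheless had a log2 fold change on the negative side, but their number changed when 1 control library was left out. Negative values were found for 42 of 46, against 53.7% of all genes tested, with a median of -0.07 beside -0.01 over all genes tested. By complex the median was -0.04 for complex II (2 of 4 negative), -0.07 for complex III (8 of 9), -0.08 for complex IV (15 of 15) and -0.05 for complex V (16 of 17), and Cycs stood at -0.09. The 4 positive values belonged to Sdha and Uqcrc2 (0.05 each), Sdhd (0.01) and Atp5b (0.00). Leaving Cox7a2l and Atp5s aside, 40 of 44 were negative. Without DMSO replicate 5 only 10 of 46 were negative, and the median was 0.03. This library was singled out because it was the highest of all for 39 of the 46 genes. Leaving out the highest control library raises most fold changes by construction, so these values do not show what the negative side rests on. Without DMSO replicates 2 and 5 and Myriocin replicate 4, 25 were negative and the median was -0.005.

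**Figure D3:**
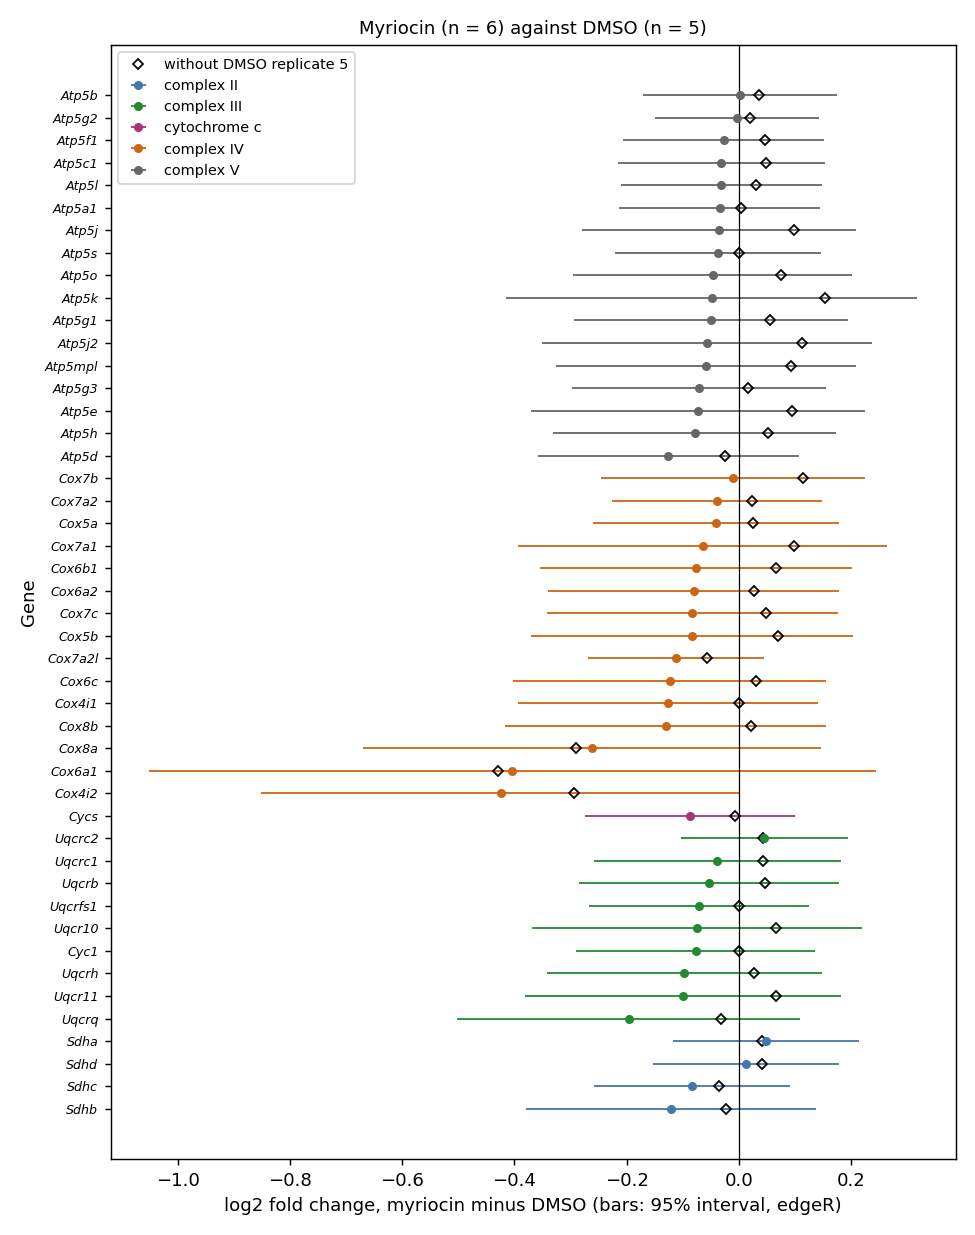
Log2 fold change, myriocin minus DMSO, of the 46 genes by complex, with 95% intervals from edgeR (filled points, n = 5 and 6). Open diamonds leave out DMSO replicate 5. Filled points lie left of 0 for 42 genes, and open diamonds for 10.

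Complex II links the citric acid cycle to the chain. Sdha (ENSMUSG00000021577, chromosome 13, 74322254 to 74350280, minus strand) stood at 1028, 798, 999, 932 and 883 CPM in DMSO replicates 1 to 5 and at 881, 934 and 1003 CPM with myriocin (lowest, median and highest). DMSO libraries held both the lowest and the highest value. Its log2 fold change was 0.05 (SE 0.08, 95% interval -0.12 to 0.21). Sdhb (ENSMUSG00000009863, chromosome 4, 140961203 to 140979193, plus strand), the iron-sulfur protein that takes the electrons on, stood at 365, 333, 387, 300 and 447 CPM with DMSO and at 261, 331 and 380 CPM with myriocin. Its log2 fold change was -0.12 (SE 0.12, edgeR's adjusted p = 0.943), and -0.02 without DMSO replicate 5. Sdhc (ENSMUSG00000058076, chromosome 1, 171127165 to 171150603, minus strand), which anchors the enzyme and helps bind its haem, stood at 275, 261, 276, 241 and 295 CPM with DMSO and at 221, 244 and 281 CPM with myriocin, with a log2 fold change of -0.08 (SE 0.08) and of -0.04 without that library. Sdhd, the other anchor, had the value 0.01 (SE 0.08). The groups overlapped for all 4 genes, and Myriocin replicate 3 was lowest for 3 of them.

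In complex III the catalytic subunits Cyc1, which carries haem, and Uqcrfs1, the Rieske iron-sulfur protein, had log2 fold changes of -0.08 (SE 0.10) and -0.07 (SE 0.09), which were within 0.001 of 0 without DMSO replicate 5. The core proteins Uqcrc1 and Uqcrc2 had -0.04 (SE 0.10) and 0.05 (SE 0.07), and both were at 0.04 without that library. Uqcrc2 (ENSMUSG00000030884, chromosome 7, 120635176 to 120659524, plus strand) was among the steadiest, at 323, 295, 335, 300 and 299 CPM in DMSO replicates 1 to 5 and 278, 310 and 336 CPM with myriocin. Its exons overlap those of Pdzd9.

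The 5 small subunits of complex III had log2 fold changes of -0.20 to -0.05, all negative. Uqcrq (ENSMUSG00000044894, chromosome 11, 53427922 to 53430831, minus strand), which lies close to cytochrome b, had the largest. It stood at 259, 287, 283, 243 and 411 CPM with DMSO and at 205, 253 and 298 CPM with myriocin. Only DMSO replicate 5 lay above the range of the myriocin libraries. The log2 fold change of -0.20 (SE 0.14, edgeR's adjusted p = 0.936) became -0.03 without that library. Uqcrh (ENSMUSG00000063882, chromosome 4, 116066965 to 116075071, minus strand), the hinge protein between cytochrome c and cytochrome c1, stood at 154, 181, 165, 141 and 222 CPM with DMSO and at 139, 158 and 179 CPM with myriocin. Its value was -0.10 (SE 0.11) and 0.03 without DMSO replicate 5. Uqcr10 (ENSMUSG00000059534, chromosome 11, 4701973 to 4704342, minus strand) stood at 176, 196, 192, 153 and 259 CPM with DMSO and at 155, 177 and 228 CPM with myriocin, with -0.07 (SE 0.14) and 0.07 without that library. Cycs (ENSMUSG00000063694, chromosome 6, 50562563 to 50566538, minus strand), the carrier between complexes III and IV, stood at 191, 210, 211, 178 and 244 CPM with DMSO and at 173, 188 and 214 CPM with myriocin. Its log2 fold change was -0.09 (SE 0.09, edgeR's adjusted p = 0.943) and -0.006 without DMSO replicate 5, and 2 annotated pseudogenes bear its name.

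The catalytic head of the ATP synthase is built from the alpha and beta subunits. Atp5b (ENSMUSG00000025393, chromosome 10, 128083273 to 128090391, plus strand) stood at 2963, 2641, 2928, 2686 and 3000 CPM in DMSO replicates 1 to 5 and at 2442, 2808 and 2954 CPM with myriocin. Its log2 fold change was 0.00 (SE 0.08, 95% interval -0.17 to 0.18), and its sign changed with scaling. Atp5a1, the alpha subunit, had -0.03 (SE 0.08). Without DMSO replicate 5 they were at 0.04 and 0.004. Atp5d (ENSMUSG00000003072, chromosome 10, 80138632 to 80145818, plus strand), the delta subunit of the rotating stalk, had the smallest p of the complex. It stood at 353, 365, 369, 333 and 462.2 CPM with DMSO and at 292, 324 and 409 CPM with myriocin, with a log2 fold change of -0.13 (SE 0.11, edgeR's adjusted p = 0.936) and of -0.03 without DMSO replicate 5. The 4 genes of the peripheral stalk, which holds the head still, had log2 fold changes of -0.08 to -0.03. The 4 small membrane subunits Atp5j2, Atp5k, Atp5l and Atp5mpl had -0.06 to -0.03. Without DMSO replicate 5 all of these were positive, at 0.05 for Atp5f1 to 0.10 for Atp5j in the stalk and at 0.03 for Atp5l to 0.15 for Atp5k in the membrane. Atp5l (ENSMUSG00000038717, chromosome 9, 44912557 to 44920742, minus strand) stood at 26.0, 24.8, 26.4, 22.6 and 29.2 CPM with DMSO and at 22.2, 24.6 and 27.3 CPM with myriocin.

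Subunit c, which forms the rotating ring in the membrane, is made from 3 genes that encode the same mature protein with different targeting sequences. Atp5g1 (ENSMUSG00000006057, chromosome 11, 96068852 to 96075670, minus strand) stood at 483, 482, 520, 440 and 635 CPM with DMSO and at 398, 471 and 559 CPM with myriocin. Atp5g3 (ENSMUSG00000018770, chromosome 2, 73908447 to 73911326, minus strand) stood at 468, 412, 454, 411 and 549 CPM with DMSO and at 347, 442 and 472 CPM with myriocin. Atp5g2 (ENSMUSG00000062683, chromosome 15, 102662864 to 102672352, minus strand) was the least counted, at 92.4, 117, 103, 98.7 and 107 CPM with DMSO and 94.7, 100 and 108 CPM with myriocin. DMSO replicate 5 was highest for Atp5g1 and Atp5g3 but not for Atp5g2. Log2 fold changes were -0.05 (SE 0.11) for Atp5g1, -0.07 (SE 0.11) for Atp5g3 and -0.00 (SE 0.07) for Atp5g2, and 0.05, 0.02 and 0.02 without DMSO replicate 5. Per kilobase of merged exons Atp5g3 made up 55.8% ± 1.95 of the 3 genes with DMSO and 55.2% ± 1.96 with myriocin (SD, n = 5 and 6), Atp5g1 27.6% ± 1.03 and 27.7% ± 1.39, and Atp5g2 16.6% ± 2.09 and 17.1% ± 1.30. Per kilobase of the principal transcript, Atp5g1 was first with 49.4% with DMSO and Atp5g3 second with 37.0%, so the order of these genes depends on which length is used, while the shares of both groups lay within 1 SD of each other under each length.

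Atp5s (ENSMUSG00000054894, chromosome 12, 69724950 to 69744660, plus strand) stood at 13.7, 14.7, 13.3, 12.3 and 14.7 CPM with DMSO and at 11.1, 13.1 and 14.97 CPM with myriocin, with a log2 fold change of -0.04 (SE 0.09), and of 0.0005 without DMSO replicate 5. A pair of genes of complex V carry symbols in the annotation used that the rule does not take. Usmg5, a small membrane subunit, had a log2 fold change of -0.08 (SE 0.13), and Atpif1, the inhibitor of the enzyme, of -0.05 (SE 0.13).

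The respiratory genes varied together across libraries. DMSO replicate 5 was the highest of the 11 libraries for 39 of the 46 genes, and Myriocin replicate 3 the lowest for 28. DMSO replicate 4, in the same group as the highest library, was lowest for 12. As the median over the 46 genes of log2(CPM + 0.5) minus the gene's mean, DMSO replicate 5 stood at 0.37, Myriocin replicate 4 at 0.13, DMSO replicate 4 at -0.16 and Myriocin replicate 3 at -0.22. The other 7 libraries lay between -0.11 and 0.06. The pooled SD within groups on this scale was largest for complex IV, at 0.20, and smallest for complex II, at 0.12. By complex, the median deviation of DMSO replicate 5 was 0.14 for complex II, 0.35 for complex III, 0.46 for complex IV and 0.37 for complex V.

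**Figure D4:**
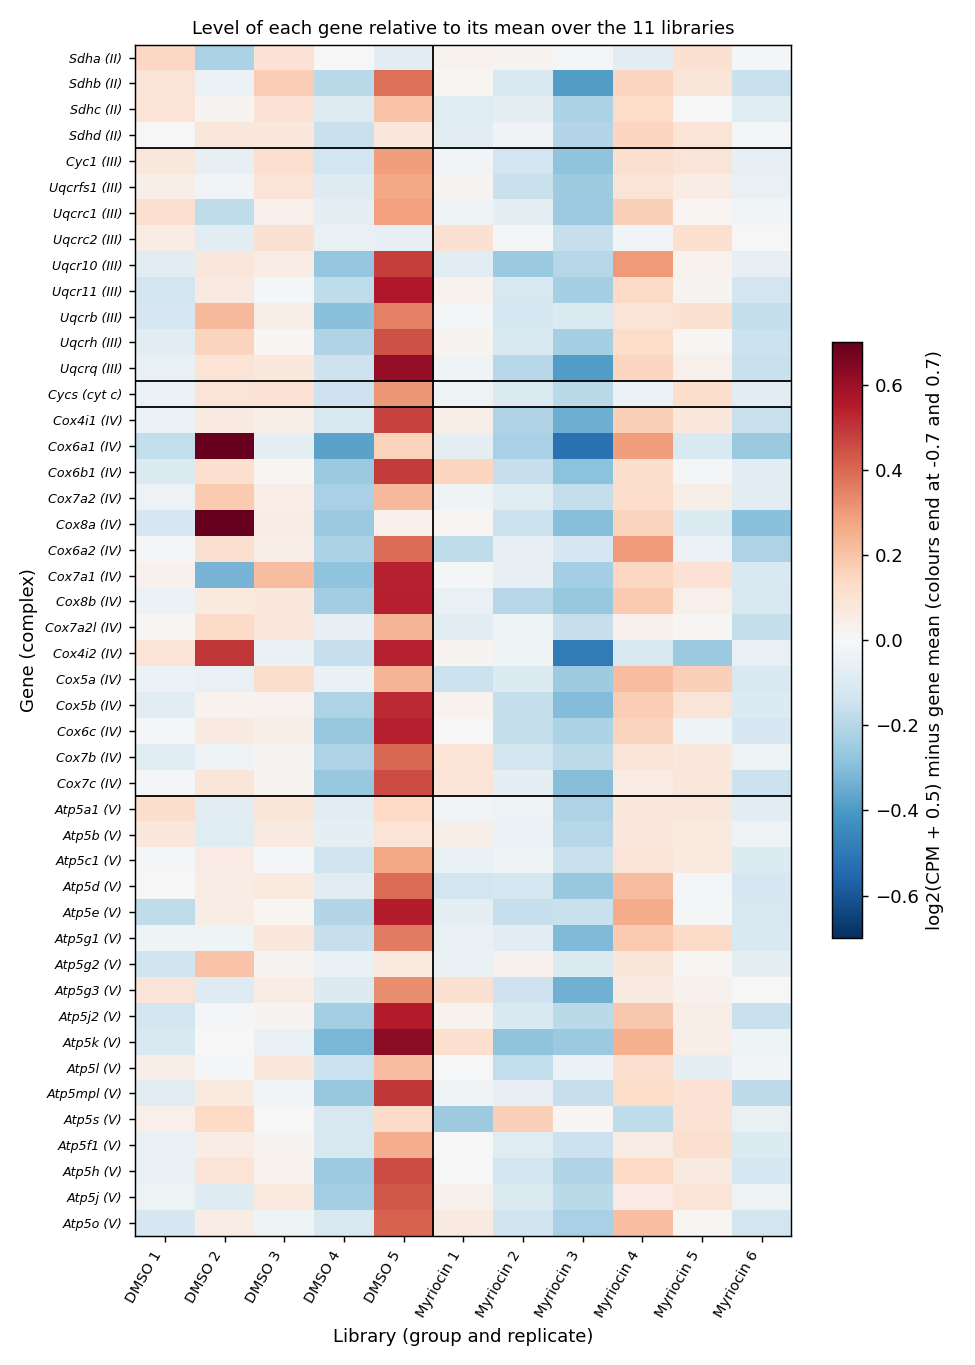
Level of each of the 46 genes in each library, as log2(CPM + 0.5) minus the gene's mean over 11 libraries. Rows are genes by complex, columns are libraries, and red is above the mean. DMSO replicate 5 is above the mean for 44 genes, whereas Myriocin replicate 6 is above it for 0, and DMSO replicate 4 and Myriocin replicate 3 for 1 each.

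The excess in DMSO replicate 5 was uneven among subunits and its median was larger for the genes with short coding sequences. Relative to the mean of the other 10 libraries, Cox4i2, with 516 coding bases and few counts, was highest at 1.64 times. Atp5k stood at 1.61 times, Uqcrq at 1.59 times, Uqcr11 at 1.53 times and Atp5e at 1.52 times, all small subunits. Of the genes with long coding sequences, Atp5b, Sdha and Uqcrc2 stood at 1.08, 0.941 and 0.955 times, but Sdhb at 1.33, Cyc1 at 1.25, Uqcrc1 at 1.24 and Uqcrfs1 at 1.23 times. The median deviation of the 30 genes with a coding length under 500 bases was 0.44 in this library, against 0.27 for the 16 longer ones. Across the 46 genes the deviation went with the log2 coding length with Pearson's r = -0.62 in DMSO replicate 5, -0.39 in Myriocin replicate 4, 0.70 in DMSO replicate 4 and 0.69 in DMSO replicate 1. These values describe genes of 1 library, which share its preparation and are not independent, and carry no test. Genes outside the respiratory set showed a difference of the same sign: in DMSO replicate 5 the median deviation was 0.15 for 1092 tested genes with short and -0.06 for 11745 with long coding sequences. What sets the difference by length was not tested. The general forms Cox6a1 and Cox8a, though short, stood at 1.05 and 0.992 times in this library.

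**Figure D5:**
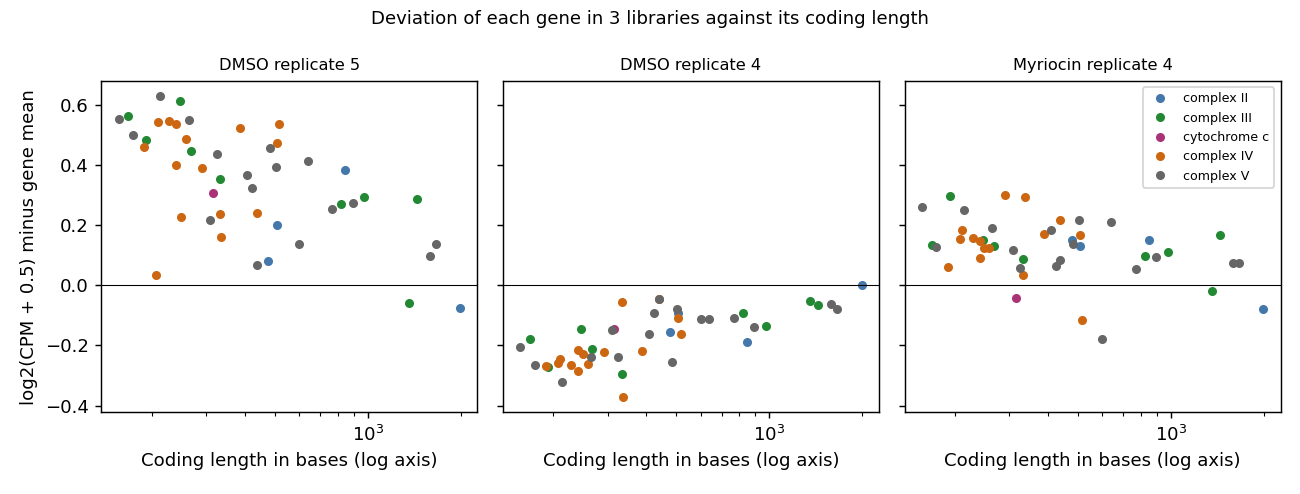
Deviation of the 46 genes, as log2(CPM + 0.5) minus the gene's mean, against coding length in bases on a log axis in 3 libraries. In DMSO replicate 5 short genes lie higher (r = -0.62), in DMSO replicate 4 lower (r = 0.70), and in Myriocin replicate 4 higher to a smaller extent (r = -0.39).

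Other shared features of the 46 genes were sought in the RefSeq promoter windows of the 35 that matched. Of these, 12 (34.3%) hold CCGGAAG, the GABP site, against 9.93% of 27025 genes in the table. GABP and NRF1 are known as activators of nuclear genes of the respiratory chain. The NRF1 site GCGCATGCG is found in 7 (20%) against 1.95%, among them Cox6a1, Cycs and Atp5g2. The site AAGGTCA of oestrogen-related receptors is found in 5 (14.3%) against 5.38%, and the YY1 site AAGATGGCG in 2 (5.71%), Atp5j and Atp5j2, against 1.64%. The consensus of MEF2, a muscle activator, is found in 0 of 35 against 0.636%. At so low a share in all genes, 0 of 35 shows no difference. TATAAA, searched after the sequences had been seen, is found in 2 (5.71%), Cox8b and Atp5l, against 15.7%. GABP and NRF1 sites are rich in C and G, and CpG counts differ between these windows and those of all genes, so the shares describe the windows and no factor's binding.

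Assembly factors of these complexes were counted as neighbours of the subunits in the pathway. Of 35 listed, 32 were tested, and Sco2, Cox20 and Pet117 were listed at 0 counts in all libraries. This sets no limit on their expression, since ambiguous reads, 6.46% to 7.73% of a library, were not counted in any gene. Reads not aligned uniquely, 15.2% to 18.1% of a library, were not counted either, for these or any other genes. Negative values were found for 20 and positive ones for 12, with a median of -0.03. At an unadjusted p under 0.05 there was 1, against 4.68% of all genes tested, and 0 passed after adjustment. That gene was Cox19, which serves copper delivery to complex IV, with a log2 fold change of -0.22 (SE 0.07, edgeR's adjusted p = 0.936). Next was Sdhaf2, which attaches the flavin to Sdha, with -0.11 (SE 0.06, edgeR's adjusted p = 0.936).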

How the data were processed

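Total RNA of 11 quadriceps libraries was isolated with a Direct-zol kit and sequenced with DNBseq, per the labels' protocols. Raw read counts per Ensembl gene were deposited by the authors, and the submitters' processing notes name STAR 2.5.2b, HTSeq 0.6.0 and GRCm38. Neither the annotation release nor the strand setting is given in these sources, so reads of overlapping genes may not have been told apart: exons of 13 of the 46 genes overlap those of another gene, on the opposite strand for 12, and 5 have named pseudogenes. HTSeq's 5 summary lines (24.8% to 28.2% of the reads) were left out of totals and tests. Symbols and lengths come from GENCODE M21 (53360 of 53465 genes matched), promoter windows from RefSeq.

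CPM were calculated from counts over the gene total. The test was edgeR 4.0.16 in R 4.3.3 (filterByExpr by group with a minimum count of 10, TMM scaling, robust quasi-likelihood F test, treatment as the single factor), with Benjamini-Hochberg adjustment over 14117 genes and a threshold of 0.05. SE was calculated back from the F statistic. Isoform ratios, with 0.5 added to each count, had exact permutation tests. Scripts were tested on simulated data. No pair of libraries within a group was a copy of another (chi-square per degree of freedom 8.91 to 48.9). Intervals and limits cover the fitted spread and counting error only.

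The members and lists were chosen with earlier results of these data known. Genes named with full values are isoform partners, the c ring, the 2 members of each complex with the smallest p, the highest and lowest per kilobase, members at the count minimum, and those that are not structural subunits. Of other lists, the 2 with the smallest p are named for assembly factors, and for marker lists only where a result touches them. Tried as alternatives were other scalings and filters, DESeq2 1.42.0, limma-voom 3.58.1, each library left out, 2 sets of 3 libraries left out, a replicate block, other member rules, lengths and pseudocounts. Replicate numbers were not taken to pair libraries: correlations of same-numbered deviations ran from -0.13 to 0.09. Protein comparisons were not run.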

Additional observations from a re-analysis of the deposited data

Results flagged for a closer look

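Values are given here where the highest or lowest library of a group lay unusually far from the nearest other library, relative to the range of its group. Of 98 such checks, 14 met the criterion, and chance gives about 5% in independent groups, which genes of the same libraries are not.

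DMSO replicate 5 was far above the other DMSO libraries for 9 genes. It stood at 292 CPM for Uqcr11 and 411 CPM for Uqcrq of complex III, and at 513 CPM for Cox4i1 and 395 CPM for Cox5b of complex IV. In complex V it stood at 462.2 CPM for Atp5d, 461.9 CPM for Atp5e, 401 CPM for Atp5j2, 109 CPM for Atp5k and 413 CPM for Atp5o. DMSO replicate 2 was far above its group for Cox6a1, at 68.0 CPM, and Cox8a, at 65.7 CPM, both general isoforms, and far below it in the log2 ratio of Cox6a2 over Cox6a1, at 4.16. Myriocin replicate 4 was far above the other myriocin libraries for Cox6a2, at 1386 CPM, and Atp5e, at 377 CPM.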

How the results depend on the processing

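The direction of the 46 genes depended on which libraries entered. Leaving out 1 library at a time gave 10 to 44 negative values of 46: without DMSO replicate 5 there were 10, and without any other library 35 to 44. Their median then lay between -0.13 and 0.03, and 0 to 1 passed an unadjusted p under 0.05. That gene was Cox4i2, without DMSO replicate 3 or 4 or Myriocin replicate 1. Without DMSO replicates 2 and 5 and Myriocin replicate 4, which earlier work found farthest out, 25 were negative. With an unadjusted p under 0.05 stood 2 genes without scaling (Cox4i2 and Cox7a2l) and 1 each with no filter and with 10 counts in all libraries (Cox4i2). None of the 46 passed after adjustment under any alternative run.

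Over all genes, DESeq2 called 6 and the other alternatives 0. Genes with an unadjusted p under 0.05 numbered 1167 with no filter, 1022 without the 3 libraries with liver transcripts, 1140 without the 3 farthest out and 493 to 1449 leaving out 1 library, the most without Myriocin replicate 4.

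With 1 library left out, the log2 isoform ratio differed between groups by -0.065 to 0.30 for Cox6a2 over Cox6a1, -0.12 to 0.085 for Cox7a1 over Cox7a2 and -0.11 to 0.24 for Cox8b over Cox8a. Without the 3 farthest out the first of these was -0.026 and the second -0.060. With the principal transcript length, an alternative chosen after seeing the data, the muscle form made up 97.4% of the pair for Cox6a2, 76.4% for Cox7a1 and 93.7% for Cox8b with myriocin.

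Single genes crossed 0. Atp5b was at -0.0017 with upper-quartile scaling, -0.033 without scaling, -0.00035 with 10 counts in all libraries and -0.037 without the 3 farthest out. Atp5g2 was at 0.0015 with no filter, 0.012 in the replicate block and 0.038 without the 3 farthest out. Without these 3, Atp5s was at 0.048, Cox6b1 at 0.064, Cox7a2 at 0.028, Sdha at -0.035, Uqcr10 at 0.0058, Uqcrc2 at -0.0040 and Uqcrh at 0.023. Leaving out 1 library gave -0.039 to 0.040 for Atp5b, -0.11 to 0.055 for Atp5g1, -0.042 to 0.025 for Atp5g2, -0.12 to 0.016 for Atp5g3, -0.074 to 0.031 for Atp5l, -0.079 to 0.0022 for Atp5s, -0.19 to 0.0011 for Cox4i1, -0.17 to 0.026 for Cox6a2, -0.15 to 0.066 for Cox6b1, -0.16 to 0.097 for Cox7a1, -0.097 to 0.024 for Cox7a2, -0.20 to 0.022 for Cox8b, -0.016 to 0.086 for Sdha, -0.16 to 0.066 for Uqcr10 and -0.16 to 0.027 for Uqcrh. The cause was not tested.

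The replicate block over 10 libraries left 40 of 46 negative with a median of -0.04, 0 called, and changed no call. No library correlated best with its own number across groups. Cox4i2, at 23 to 57 counts, had the lowest counts of the 46.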
